A study of Mus musculus with 6 samples.

Results

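The 10 genes described here encode ligands, receptors and SMAD proteins of the TGF-β, activin and BMP pathway, and they were taken by symbol from the 23358 gene entries of the count table. They are *Tgfb1*, *Tgfb2*, *Tgfb3*, *Inhba*, *Bmp2*, *Bmp4*, *Tgfbr1*, *Tgfbr2*, *Smad3* and *Smad7*. All 10 were found and all 10 passed the filter on low counts, which left 16415 genes for testing. RNA-Seq had been performed on 6 spontaneous tumors from female mice, 3 per Cre line. Tumors 13, 18 and 25 were *Osx-Cre;NT3* trunk tumors with latencies of 150, 168 and 115 days. Among the *FSP1-Cre;NT3* tumors, 29 was from the trunk and 27 and 36 were perineal, and their latencies were 72, 101 and 52 days, respectively. Each tumor keeps its mouse number here.

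Every tumor carried *NT3*, a transgene for NF-κB inducing kinase (NIK, the kinase at the head of alternative NF-κB signaling) without its TRAF3 binding domain, which sits in the ROSA26 locus behind a STOP cassette that Cre removes. *Osx-Cre* is a doxycycline-repressed GFP::Cre fusion under the Osterix (*Sp7*) promoter, active in the bone-forming lineage, and those mice ate doxycycline chow until weaning. *FSP1-Cre* uses the *S100a4* promoter, active in fibroblasts and other cells. The *NT3* parents were on C57Bl/6J, the *Osx-Cre* parents on mixed C57Bl/6J and CD1, and the *FSP1-Cre* parents on FVB/n, so strain background differed with the line. Both perineal tumors were *FSP1-Cre;NT3* and all *FSP1-Cre;NT3* latencies were shorter than all *Osx-Cre;NT3* latencies. Line, site, latency and background therefore cannot be told apart for most values, and RNA integrity was also lower on average in the *Osx-Cre;NT3* tumors. Benign tissue and Cre-negative mice were not analysed here. No source says how many litters the mice came from.

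Ligands of this family are secreted dimers that bind a type II receptor kinase, which phosphorylates a type I receptor. TGF-β and activins signal mainly through SMAD2 and SMAD3, and BMPs through SMAD1, SMAD5 and SMAD9, each together with SMAD4. TGF-β is stored in the matrix in a latent form, and SMAD6 and SMAD7 are feedback inhibitors that the pathway itself induces. In skin and connective tissue, TGF-β is known for restraining epithelial proliferation and for driving matrix production by fibroblasts.

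Total counts per tumor ranged from 51824408 to 163297772, and a count of 3 corresponded to 0.0195 to 0.0621 CPM (counts scaled by TMM-adjusted library size). *Map3k14*, the gene for NIK, ranged from 38.7 to 118.5 CPM and *Sp7* reached at most 0.282 CPM, while *S100a4* ranged from 32.7 to 252 CPM. The labels call the samples spontaneous tumors, and the transcripts included markers of several cell types. Summed CPM of 6 basal keratinocyte markers, led by *Krt5* and *Krt14*, was 5687 to 14250, and that of 7 fibroblast markers, led by *Col3a1*, was 2633 to 7900. Tumor 36 stood apart: its 6 smooth muscle and myoepithelial markers summed to 2667 CPM against 246 to 558 in the other tumors, its 6 simple epithelial markers to 4759 against 621 to 1188, and its basal keratinocyte sum was the lowest. Not every marker followed its sum. Of the 6 simple epithelial markers, 4 were highest in tumor 36, but *Krt18* was highest in tumor 18 and *Krt7* in tumor 27. Of the 6 basal keratinocyte markers, 4 were lowest in tumor 36, but *Col17a1* and *Itga6* were lowest in tumor 18. In such bulk tumors, fewer cells of a type and less RNA per cell cannot be told apart.

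Upstream sequences are shown for the 4 members that the results turn on: *Tgfbr2* and *Bmp4*, which had the smallest p-values between sites, and *Tgfb1* and *Tgfb2*, whose proportions varied between tumors. Each is the 250 bases before the RefSeq transcription start in GRCm38.p6, written 5′ to 3′ on the gene's strand. The windows lie at chr9:116175364-116175613 on the minus strand (*Tgfbr2*), chr14:46390670-46390919 on the minus strand (*Bmp4*), chr7:25686752-25687001 on the plus strand (*Tgfb1*) and chr1:186705990-186706239 on the minus strand (*Tgfb2*). Capitals mark matches, on either strand, to the SMAD palindrome (GTCTAGAC), the CAGA box (CCAGACA), the GC element bound by BMP SMADs (GGCGCC), the GC box (GGGCGG), the TATA box (TATAAA) or the κB consensus.
Tgfbr2: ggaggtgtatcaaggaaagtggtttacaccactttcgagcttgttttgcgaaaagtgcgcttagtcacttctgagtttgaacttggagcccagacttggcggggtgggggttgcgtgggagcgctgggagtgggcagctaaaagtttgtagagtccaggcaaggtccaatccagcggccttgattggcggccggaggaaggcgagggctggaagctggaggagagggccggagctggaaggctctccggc
Bmp4: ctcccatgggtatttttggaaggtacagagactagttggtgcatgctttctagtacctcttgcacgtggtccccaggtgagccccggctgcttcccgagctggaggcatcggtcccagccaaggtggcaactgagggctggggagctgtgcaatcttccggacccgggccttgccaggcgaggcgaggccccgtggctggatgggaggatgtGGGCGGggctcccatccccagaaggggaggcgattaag
Tgfb1: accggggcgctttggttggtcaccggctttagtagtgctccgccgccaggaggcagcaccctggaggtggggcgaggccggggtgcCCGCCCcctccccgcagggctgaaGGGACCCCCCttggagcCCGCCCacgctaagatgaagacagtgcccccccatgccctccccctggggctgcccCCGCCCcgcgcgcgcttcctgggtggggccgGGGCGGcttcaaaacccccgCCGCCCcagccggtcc
Tgfb2: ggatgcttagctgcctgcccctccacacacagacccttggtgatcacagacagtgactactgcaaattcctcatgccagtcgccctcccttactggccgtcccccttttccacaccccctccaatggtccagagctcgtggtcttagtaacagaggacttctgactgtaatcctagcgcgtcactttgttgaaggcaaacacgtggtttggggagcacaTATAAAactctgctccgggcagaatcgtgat

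The *Tgfbr2* window held none of the 6 motifs. The *Bmp4* window held 1 GC box, 33 to 38 bases before the start. The *Tgfb1* window held 5 GC boxes and a κB match at 131 to 140 bases before the start, and 75.2% of its bases were G or C against a median of 52.4% over all 32851 promoter windows. *Tgfb2* had a TATA box 26 to 31 bases before the start. GC boxes occurred in 32.7% of all windows, TATA boxes in 12.4%, GC elements in 9.59%, CAGA boxes in 5.01%, κB matches in 5.0% and SMAD palindromes in 0.167%. RefSeq promoters were matched for 7 of the 10 members, in 8 windows, because *Tgfbr1* has 2. The upstream window of *Smad3* held 2 GC boxes, the more distal window of *Tgfbr1* held 2 GC boxes and a GC element, and *Inhba* had a TATA box 86 to 91 bases before the start. A match of letters says nothing about occupancy.

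Levels of different genes were compared per transcript length, on the deposited RPKM values, which divide reads by gene length and library size. The mean RPKM over 6 tumors was 20.3 ± 9.85 (SD) for *Tgfbr2*, 13.8 ± 2.03 for *Tgfbr1*, 13.6 ± 4.77 for *Tgfb2* and 12.8 ± 3.20 for *Tgfb1*. Then came *Tgfb3* at 6.66 ± 1.15, *Smad3* at 6.55 ± 2.04 and *Smad7* at 4.85 ± 1.71 RPKM. The activin and BMP ligands were lowest, with *Bmp2* at 2.88 ± 1.28, *Bmp4* at 1.40 ± 2.35 and *Inhba* at 1.05 ± 0.761 RPKM. Neighbors in this order differed by less than the larger of their SDs, except *Tgfb1* from *Tgfb3* and *Smad7* from *Bmp2*. Among all entries the members ranked from 3092 (*Tgfbr2*) to 12636 (*Inhba*) by mean RPKM.

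No member passed an adjusted p of 0.05 between the lines or between the sites by edgeR (quasi-likelihood fits, p-values adjusted over all genes by Benjamini-Hochberg), and neither did any of the 16415 genes (0%). The smallest adjusted p-values over all genes were 0.359 for line and 0.287 for site. At an unadjusted p under 0.05, 2 of 10 members, *Tgfbr2* and *Bmp2*, were higher in *FSP1-Cre;NT3* tumors, where 10.8% of all genes passed, 7.31% higher and 3.47% lower. Between sites, 2 of 10, *Tgfbr2* and *Bmp4*, were higher in perineal tumors, where 10.2% of all genes passed, 8.61% higher and 1.63% lower. No member was lower at that threshold in either comparison. DESeq2, the alternative test, called 412 genes (2.51%) but none of the members between lines, and called 547 genes (3.33%) between sites, *Bmp4* and *Tgfbr2* among them, at adjusted p-values of 0.00214 and 0.00275. The tests therefore differed on these 2 genes, and the cause was not tested. Without tumor 36, which leaves 1 perineal tumor, DESeq2 gave log2 fold changes of 1.71 for *Bmp4* (adjusted p = 0.9997) and 1.07 for *Tgfbr2* (adjusted p = 0.955). The DESeq2 call of *Tgfbr2* was also lost without tumor 13 and without tumor 27 (adjusted p = 0.0568 in each).

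**Figure D1:**
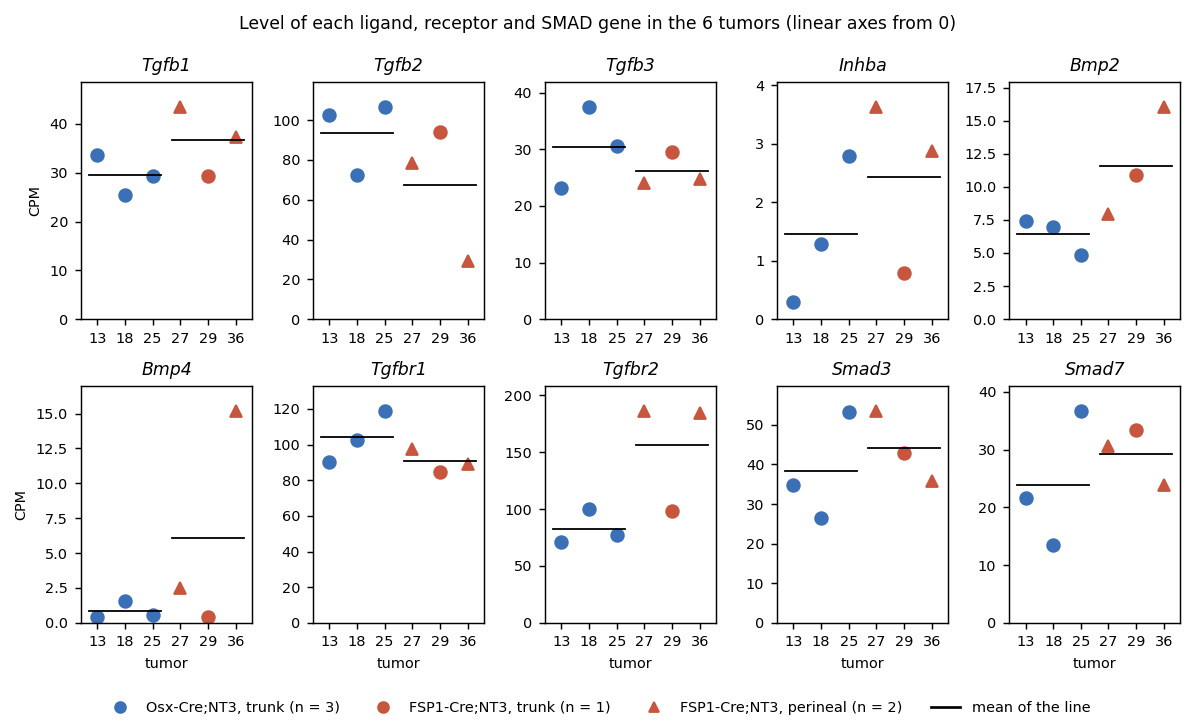
CPM (vertical axes, linear from 0) of the 10 members in each of the 6 tumors (horizontal axes, tumor number). Blue is Osx-Cre;NT3 and red FSP1-Cre;NT3, circles are trunk and triangles perineal tumors, and black lines are means of 3 tumors. Tgfbr2 lies at 184 and 186 CPM in the 2 perineal tumors against at most 100.1 in the trunk tumors, and Bmp4 is highest in tumor 36.

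The type II receptor *Tgfbr2*, which binds the TGF-β ligands first, stood at 70.9, 100.1 and 77.2 CPM in *Osx-Cre;NT3* tumors 13, 18 and 25. In *FSP1-Cre;NT3* tumors it was at 98.6 CPM in trunk tumor 29 and at 186 and 184 CPM in perineal tumors 27 and 36. The sites thus did not overlap, while the trunk *FSP1-Cre;NT3* tumor fell within the *Osx-Cre;NT3* range. The log2 fold change of perineal over trunk was 1.10 ± 0.22 (SE; edgeR unadjusted p = 0.00148, adjusted p = 0.287). Over the 19 alternative settings it stayed between 0.91 and 1.19. The log2 fold change of *FSP1-Cre;NT3* over *Osx-Cre;NT3* was 0.92 ± 0.29 (edgeR unadjusted p = 0.0175, adjusted p = 0.458), and it was 0.25 among trunk tumors alone.

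Its partner *Tgfbr1*, the type I receptor that carries the signal to SMAD2 and SMAD3, varied least of the 10. It stood at 90.5, 103 and 119 CPM in the *Osx-Cre;NT3* tumors and at 97.5, 84.8 and 89.3 CPM in tumors 27, 29 and 36, so the groups overlapped. Its log2 fold change was -0.20 ± 0.18 by line (edgeR adjusted p = 0.639) and -0.09 ± 0.22 by site (edgeR adjusted p = 0.896), and the latter had the opposite sign when library sizes alone were used for scaling. The ratio of *Tgfbr1* to *Tgfbr2* RPKM within each tumor was 1.08, 0.867 and 1.30 in the *Osx-Cre;NT3* tumors. It was 0.727 in tumor 29 and 0.443 and 0.409 in the perineal tumors 27 and 36. All 3 *FSP1-Cre;NT3* ratios were below all *Osx-Cre;NT3* ratios, with a mean difference of -1.07 on the log2 scale (exact two-sided permutation p = 0.1, the smallest that 3 against 3 allows, adjusted p = 0.4 over 8 ratios).

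**Figure D2:**
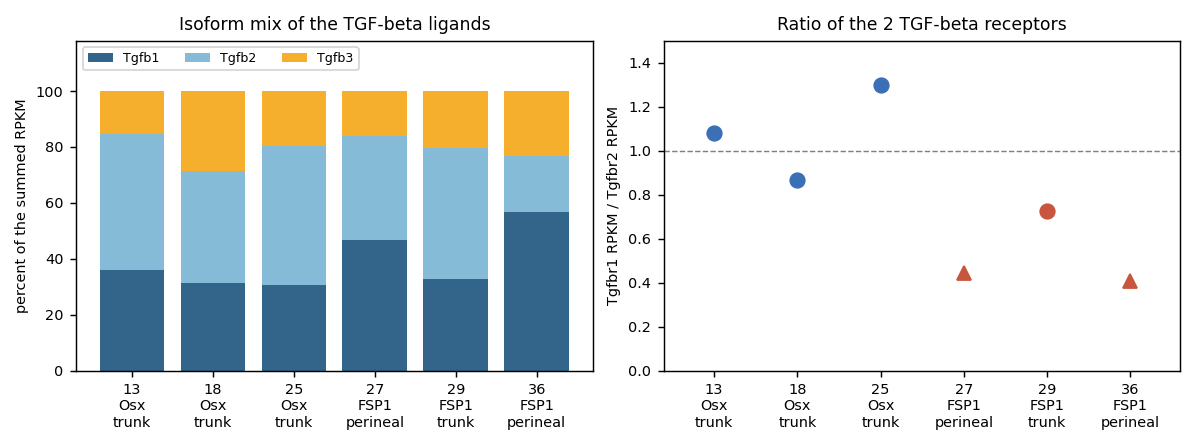
Left, the percent of the summed TGF-β ligand RPKM taken by each of the 3 isoforms (stacked bars) in each tumor. Right, the ratio of Tgfbr1 to Tgfbr2 RPKM per tumor, with blue for Osx-Cre;NT3, red for FSP1-Cre;NT3, circles for trunk and triangles for perineal tumors, and a dashed line at 1. Tgfb1 takes 56.8% in tumor 36, and the receptor ratio is lowest, at 0.409 and 0.443, in the perineal tumors.

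The 3 TGF-β isoforms showed no common direction. *Tgfb1*, the isoform widely made by immune and stromal cells, was at 33.7, 25.4 and 29.4 CPM in tumors 13, 18 and 25. It was at 29.2 CPM in trunk tumor 29 and at 43.4 and 37.3 CPM in perineal tumors 27 and 36. Both perineal tumors were above all trunk tumors, with a log2 fold change of 0.46 ± 0.21 (edgeR unadjusted p = 0.0689, adjusted p = 0.522). The line difference was 0.31 ± 0.23 (edgeR adjusted p = 0.567) and was -0.02 among trunk tumors alone.

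*Tgfb2*, an isoform made by many epithelial cells, was at 102, 72.3 and 107 CPM in the *Osx-Cre;NT3* tumors and at 78.6, 94.2 and 29.4 CPM in tumors 27, 29 and 36. Tumor 36 was the lowest, and the other tumors of both lines overlapped. The log2 fold change was -0.80 ± 0.40 by site (edgeR unadjusted p = 0.0862, adjusted p = 0.544) and -0.48 ± 0.42 by line (edgeR adjusted p = 0.643). Tumor 36 also had the lowest basal keratinocyte marker sum, at 5687 CPM against at least 9956 elsewhere, with 4 of the 6 markers lowest there. The part of that difference in the *Tgfb2* level was not tested. Without tumor 36, the site difference was -0.26, and without tumor 27 it was -1.67 with DESeq2, a value that rests on tumor 36 as the lone perineal tumor.

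*Tgfb3* stood at 23.1, 37.4 and 30.6 CPM in the *Osx-Cre;NT3* tumors and at 24.0, 29.5 and 24.7 CPM in tumors 27, 29 and 36. The groups overlapped by line and by site, with log2 fold changes of -0.22 ± 0.24 and -0.31 ± 0.25 (edgeR adjusted p = 0.710 and 0.657). In the summed RPKM of the 3 isoforms, *Tgfb1* made up 36.1%, 31.5% and 30.8% in the *Osx-Cre;NT3* tumors and 46.6%, 32.8% and 56.8% in tumors 27, 29 and 36. The share of *Tgfb2* was 48.6%, 39.8% and 49.4% against 37.4%, 46.8% and 19.9% in the same order. *Tgfb2* was thus the leading isoform in all 4 trunk tumors, and *Tgfb1* led in both perineal tumors. The mean share differed between lines by 12.6 percentage points for *Tgfb1* and -11.3 for *Tgfb2* (exact permutation p = 0.2 for each, adjusted p = 0.4), and by -1.38 for *Tgfb3* (exact permutation p = 0.9).

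*Bmp4*, a BMP ligand of mesenchymal and ectodermal development, had the widest range of the 10, with a 34.8-fold ratio of highest to lowest tumor. It was at 0.456, 1.53 and 0.563 CPM in the *Osx-Cre;NT3* tumors and at 0.436 CPM in trunk tumor 29. In perineal tumors 27 and 36 it was at 2.52 and 15.2 CPM, above all trunk tumors. The log2 fold change of perineal over trunk was 3.55 ± 0.81 (edgeR unadjusted p = 0.00300, adjusted p = 0.287). The size depended on tumor 36, since without it the difference was 1.74, and without tumor 27 it was 4.29 (edgeR adjusted p = 0.0437, with the lone perineal tumor assumed to vary like the trunk tumors). Between lines the log2 fold change was 2.82 ± 1.23 (edgeR unadjusted p = 0.0570, adjusted p = 0.459) and -0.98 among trunk tumors alone. An opposite-strand gene, *Gm15217*, shares 89 exonic bases with *Bmp4* in GENCODE, and without a stated strand setting reads from the overlap cannot be told apart.

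*Bmp2*, a closely related ligand, was the only member whose lines did not overlap. It stood at 7.45, 6.96 and 4.82 CPM in the *Osx-Cre;NT3* tumors and at 7.92, 10.88 and 16.01 CPM in tumors 27, 29 and 36. Among all genes tested, 17% did not overlap between lines, with 9.03% higher and 7.97% lower. The log2 fold change was 0.86 ± 0.36 by line (edgeR unadjusted p = 0.0484, adjusted p = 0.459) and 0.67 ± 0.43 by site (edgeR adjusted p = 0.586). *Bmp4* exceeded *Bmp2* in RPKM in tumor 36, at a ratio of 1.20, while the ratio was 0.0506 to 0.401 in the other tumors.

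*Inhba*, which encodes the βA subunit of activin A, was at 0.290, 1.29 and 2.79 CPM in tumors 13, 18 and 25 and at 3.62, 0.795 and 2.88 CPM in tumors 27, 29 and 36. The perineal tumors were highest but tumor 25 came close, and the range was 12.5-fold. The log2 fold change was 1.33 ± 0.78 by site (edgeR unadjusted p = 0.132, adjusted p = 0.571) and 0.74 ± 0.88 by line (edgeR adjusted p = 0.736). *Fst*, the follistatin gene whose product binds activins, exceeded *Inhba* 20.1-, 5.04- and 1.03-fold in RPKM in the *Osx-Cre;NT3* tumors and 4.05-, 7.03- and 5.07-fold in tumors 27, 29 and 36, with no difference in the mean beyond the spread (exact permutation p = 0.9). In all, 4 of 10 members (*Tgfb1*, *Inhba*, *Bmp4* and *Tgfbr2*) were above all trunk tumors in both perineal tumors and none was below, where 19.6% of all genes did not overlap between sites, with 9.98% higher and 9.57% lower.

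*Smad3*, the receptor-activated SMAD of TGF-β and activin, was at 34.9, 26.6 and 53.3 CPM in the *Osx-Cre;NT3* tumors and at 53.5, 42.8 and 35.9 CPM in tumors 27, 29 and 36. *Smad7*, the inhibitory SMAD, was at 21.6, 13.5 and 36.7 CPM and at 30.6, 33.4 and 23.9 CPM in the same order. Both were lowest in tumor 18, and the groups overlapped for both. Their line differences were 0.20 ± 0.31 and 0.29 ± 0.38 on the log2 scale (edgeR adjusted p = 0.793 and 0.759), and their site differences were 0.18 ± 0.33 and 0.05 ± 0.41 (edgeR adjusted p = 0.851 and 0.970). The ratio of *Smad3* to *Smad2* RPKM was 0.849 to 1.48 and that of *Smad7* to *Smad6* was 0.631 to 1.45, and the mean log2 ratios differed between lines by 0.36 and 0.40 (exact permutation p = 0.2 and 0.4). Across all members the ratio of highest to lowest tumor ran from 1.40 (*Tgfbr1*) to 34.8 (*Bmp4*), and 6 of 10 were above 2.37, the median of all genes tested.

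The perineal tumors differed from the trunk tumors in several cell type markers as well. The 5 adipocyte markers (*Adipoq*, *Fabp4*, *Plin1*, *Cidec* and *Lep*) summed to 36.2 CPM in tumor 27 and 128 CPM in tumor 36 against 2.53 to 12.7 CPM in the trunk tumors. The 4 neutrophil markers found summed to 156 and 459 CPM against 19.5 to 61.8, the 6 macrophage markers to 485 and 725 CPM against 287 to 418, and the 5 endothelial markers to 361 and 287 CPM against 111 to 247. Not every marker followed its sum, and *Mpo*, *Cd68*, *Adgre1*, *Cd14* and *Emcn* overlapped between sites. Among macrophage markers, *Mrc1* was at 114 to 243 CPM in perineal and 16.2 to 45.9 CPM in trunk tumors. *Cd68* was at 40.4 to 55.3 CPM and 38.5 to 85.3 CPM, respectively. For fibroblast markers, the perineal sums of 6319 and 7900 CPM overlapped the 7001 CPM of tumor 29. The part of these cell types in the *Tgfbr2* and *Bmp4* levels was not tested.

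**Figure D3:**
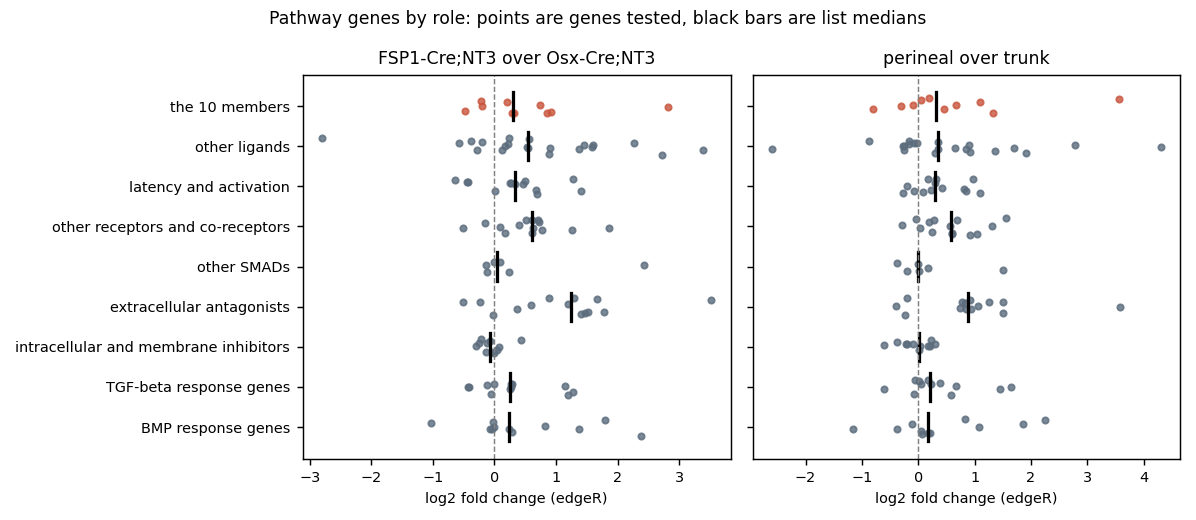
Log2 fold changes from edgeR (horizontal axes) by line (left, FSP1-Cre;NT3 relative to Osx-Cre;NT3) and by site (right, perineal relative to trunk) for the 10 members (red) and for 8 lists of other pathway genes (grey). The TGF-β and BMP response lists also hold the member Smad7. Each point is a gene tested, and black bars are list medians. The extracellular antagonists have medians of 1.24 (line, 0.24 among trunk tumors alone) and 0.88 (site, 0.36 with line as a covariate), and the intracellular and membrane inhibitors have medians near 0.

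The rest of the pathway was described with 103 further genes in 8 lists, of which 94 were tested. The lists share some genes, and the TGF-β and BMP response lists also hold the member *Smad7*. None passed an adjusted p of 0.05 in edgeR, in either comparison. Between lines, 25 were higher in *FSP1-Cre;NT3* tumors at an unadjusted p under 0.05 and 1 was lower, where 7.31% and 3.47% of all genes were, and their median log2 fold change was 0.38 against 0.01 over all genes. Between sites, 16 were higher in perineal tumors and 1 was lower, where 8.61% and 1.63% of all genes were, with a median of 0.30 against -0.02. The members' own medians were 0.30 and 0.32. DESeq2 called 11 of these genes between lines, 10 of them higher, and 8 between sites, 7 of them higher, where it called 2.51% and 3.33% of all genes. Leaving out 1 tumor moved the DESeq2 counts to 3 (without tumor 13), 6 (without 36) and 23 (without 25) between lines, and to 0 (without 36), 3 (without 13) and 13 (without 29) between sites. Without tumor 29 the remaining *FSP1-Cre;NT3* tumors are all perineal, so the site fit is then the same as the line fit. The fibroblast marker sum was likewise higher in all *FSP1-Cre;NT3* tumors, at 6319 to 7900 CPM against 2633 to 4527. Of its 7 markers, *Dpt* and *Vim* overlapped between lines. The part of fibroblast content in the pathway values was not tested. In the lists below, genes named to complete a count of 5 or fewer were chosen after their values were seen.

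Extracellular antagonists, which bind ligands outside the cell, had the highest medians of the 8 lists, at 1.24 by line and 0.88 by site over 14 genes tested. The line median was 0.50 with site as a covariate and 0.24 among trunk tumors alone, and the site median was 0.36 with line as a covariate. Here the line values rest on tumor 29 against the *Osx-Cre;NT3* tumors, and the site value on tumor 29 against the perineal tumors. At an unadjusted p under 0.05, 8 antagonists were higher in *FSP1-Cre;NT3* tumors, 4 were higher in perineal tumors (*Chrdl1*, *Grem1*, *Fst* and *Fstl1*) and none was lower, where 7.31% and 8.61% of all genes were higher by line and by site. *Dcn*, the matrix proteoglycan decorin, was at 377, 364 and 72.6 CPM in the *Osx-Cre;NT3* tumors and at 587, 859 and 894 CPM in tumors 27, 29 and 36 (log2 fold change 1.52, edgeR unadjusted p = 0.0376). *Chrdl1*, a BMP-binding chordin relative, was at 0.0828 to 0.870 CPM and at 1.32, 0.924 and 11.1 CPM, respectively. *Fst* was at 8.90, 9.90 and 4.39 CPM and at 22.4, 8.54 and 22.3 CPM, so its 2 high values were perineal. *Fstl1* was at 213 to 402 CPM against 315 to 556 CPM, and *Twsg1*, a BMP modulator, at 234 to 324 against 196 to 329 CPM, both overlapping. *Grem1*, the BMP antagonist gremlin, was singled out after its values were seen. It stood at 5.27 to 5.92 CPM in the *Osx-Cre;NT3* tumors, 9.47 CPM in tumor 29 and 15.8 and 21.6 CPM in the perineal tumors.

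Among 21 other ligands tested, 5 were higher and 1 lower between lines at an unadjusted p under 0.05, and the same counts held between sites. Over all genes, 7.31% were higher and 3.47% lower by line, and 8.61% and 1.63% by site. The higher ligands by line were *Inhbb*, *Gdf7*, *Gdf10*, *Gdf11* and *Bmp8b*, and those by site were *Gdf10*, *Gdf11*, *Bmp5*, *Bmp6* and *Bmp8a*. *Bmp5*, a relative of the BMP7 group, was at 0.0563 to 1.01 CPM in trunk tumors of *Osx-Cre;NT3* mice, 0.0513 CPM in tumor 29, and 1.60 and 10.9 CPM in the perineal tumors 27 and 36. *Gdf10* stood at 0.253 to 0.621 CPM in *Osx-Cre;NT3* tumors and at 2.36, 1.05 and 6.38 CPM in tumors 27, 29 and 36. *Bmp7*, the most abundant of this list, had levels of 24.5 to 40.4 CPM and 27.0 to 62.8 CPM, which overlapped, as did those of *Inha*, the inhibin α subunit gene, at 6.16 to 11.5 and 3.66 to 15.2 CPM. *Bmp3* ranged from 11.5 to 16.3 CPM over all tumors. The lower gene in both comparisons was *Gdf3*, a ligand of the early embryo, at 15.0, 9.73 and 5.41 CPM in the *Osx-Cre;NT3* tumors and 1.75, 1.69 and 0.875 CPM in tumors 27, 29 and 36 (line log2 fold change -2.80, edgeR unadjusted p = 0.00102).

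Of the 13 genes for latency and activation, 4 (*Ltbp1*, *Ltbp3*, *Ltbp4* and *Nrros*) were higher in *FSP1-Cre;NT3* tumors at an unadjusted p under 0.05, and 1 (*Nrros*) in perineal tumors. Over all genes, 7.31% were higher by line and 8.61% by site. *Ltbp4*, which tethers latent TGF-β to the matrix, was at 46.5, 20.1 and 98.1 CPM in the *Osx-Cre;NT3* tumors and at 148, 125 and 163 CPM in tumors 27, 29 and 36 (log2 fold change 1.40, edgeR unadjusted p = 0.0337). *Thbs1*, an activator of latent TGF-β, and *Itgb8*, an integrin subunit with the same role, were both highest in *Osx-Cre;NT3* tumor 25, at 345 and 108 CPM, and their lines overlapped. *Furin*, a protease that cleaves the precursors, ranged from 39.1 to 129 CPM, and *Bmp1*, a procollagen proteinase, from 71.1 to 108 CPM, with overlapping lines.

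Of 14 other receptors and co-receptors, 12 had positive fold changes in each comparison, where 51.1% of all genes did by line and 48.2% by site. At an unadjusted p under 0.05, 3 (*Tgfbr3*, *Acvrl1* and *Rgma*) were higher by line and 2 (*Tgfbr3* and *Rgma*) by site. Over all genes, 7.31% were higher by line and 8.61% by site. *Tgfbr3* (betaglycan), a co-receptor that presents TGF-β to the type II receptor, was at 8.82, 15.1 and 6.87 CPM in the *Osx-Cre;NT3* tumors and at 31.2, 26.7 and 53.8 CPM in tumors 27, 29 and 36, without overlap (log2 fold change 1.86, edgeR unadjusted p = 0.00285). *Eng* (endoglin), a co-receptor of endothelium, was at 38.9 to 89.3 CPM and at 90.5 to 142 CPM, also without overlap, as was the endothelial marker sum at 111 to 241 against 247 to 361 CPM. Of the endothelial markers, *Cdh5*, *Kdr* and *Emcn* overlapped between lines. *Bmpr1a*, *Acvr1b* and *Rgmb*, which serve BMP and activin signaling, overlapped between lines, with log2 fold changes of -0.15, 0.71 and 0.39. The other SMADs had medians of 0.04 by line and -0.00160 by site, and 1 of 6, *Smad9*, passed an unadjusted p under 0.05 by line. *Smad4*, the shared partner, ranged from 131 to 338 CPM, the BMP-activated *Smad1* and *Smad5* from 62.5 to 104 CPM and from 73.5 to 148 CPM, and the inhibitory *Smad6* from 10.8 to 25.1 CPM, all with overlapping lines. None of the 11 intracellular and membrane inhibitors passed an unadjusted p under 0.05, and *Fkbp1a* (a type I receptor-binding protein), *Ppm1a* (a phosphatase that acts on SMADs), *Smurf1* (a ubiquitin ligase) and *Ski* (a SMAD co-repressor) had log2 fold changes by line of -0.21, -0.07, 0.04 and 0.43.

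**Figure D4:**
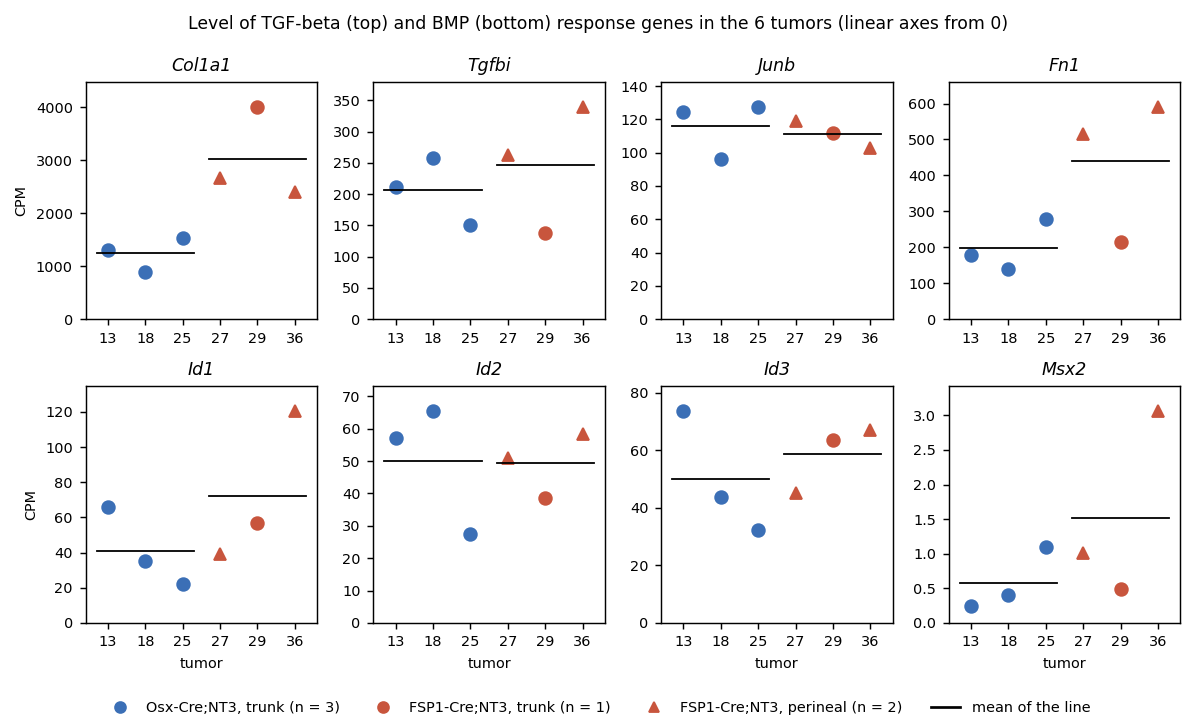
CPM (linear axes from 0) of 4 TGF-β response genes (top) and 4 BMP response genes (bottom) in each tumor, with blue for Osx-Cre;NT3, red for FSP1-Cre;NT3, circles for trunk, triangles for perineal tumors and black lines for means of 3 tumors. Fn1 is highest in the perineal tumors, Col1a1 in the FSP1-Cre;NT3 tumors, and Id1 and Msx2 in tumor 36.

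Genes known to respond to TGF-β did not share a direction. *Fn1*, the gene for the matrix protein fibronectin, was named after its values were seen. It was at 179, 139 and 277 CPM in the *Osx-Cre;NT3* tumors, 215 CPM in trunk tumor 29, and 514 and 590 CPM in perineal tumors 27 and 36. Its sites did not overlap, with a log2 fold change of 1.45 (edgeR unadjusted p = 0.00183). *Tgfbi* was at 138 to 258 CPM in trunk tumors and at 262 and 339 CPM in perineal tumors. *Col1a1*, the main fibrillar collagen gene, followed the line instead, at 1312, 886 and 1529 CPM in the *Osx-Cre;NT3* tumors and 2663, 4002 and 2394 CPM in tumors 27, 29 and 36 (log2 fold change 1.28, edgeR unadjusted p = 0.00622). *Junb* ranged from 96.2 to 127 CPM with overlap. Over the 12 genes, 2 were higher by line (*Fn1* and *Col1a1*) and 2 by site, *Fn1* among them, at an unadjusted p under 0.05 and none was lower, with medians of 0.26 and 0.20. Over all genes, 7.31% were higher by line and 8.61% by site. The line median of the 12 genes was -0.15 both with site as a covariate and among trunk tumors alone. Both settings rest on tumor 29 against the *Osx-Cre;NT3* tumors, so they are not separate checks.

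BMP response genes gave medians of 0.23 by line and 0.18 by site over 11 genes, with 2 higher by line (*Id4* and *Atoh8*), 2 higher by site (*Id4* and *Msx2*) and none lower at an unadjusted p under 0.05. Over all genes, 7.31% were higher by line and 8.61% by site. *Id1*, a direct BMP target that blocks differentiation factors, was highest in tumor 36 at 121 CPM and ranged from 22.1 to 65.9 CPM elsewhere. *Id2* and *Id3* ranged from 27.4 to 65.5 CPM and from 32.2 to 73.7 CPM, with neither line nor site apart. *Msx2* was at 3.06 CPM in tumor 36, where *Bmp4* was also highest, and at 0.248 to 1.10 CPM elsewhere. *Msx1*, named after its values were seen, went the other way by site (log2 fold change -1.16, edgeR unadjusted p = 0.0852). It was at 0.706 and 1.53 CPM in perineal tumors 27 and 36 against 1.69 to 3.85 CPM in trunk tumors. No other gene of this list had sites apart, where 9.57% of all genes were lower without overlap. *Atoh8* was at 0.225 to 1.28 CPM in the *Osx-Cre;NT3* tumors and at 1.97, 3.08 and 4.03 CPM in tumors 27, 29 and 36, without overlap. Tumor 36 was the highest tumor for 24.8% of all genes tested and for 2 of the 10 members, *Bmp2* and *Bmp4*.

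The 10 members are protein-coding genes in GENCODE, and the table's coordinates are on mm10 (GRCm38). By the table's coordinates, *Tgfbr2* spans chr9:116087695-116175363 on the minus strand, *Bmp4* spans chr14:46383520-46390599 on the minus strand, *Tgfb1* spans chr7:25687002-25704996 on the plus strand and *Tgfb2* spans chr1:186623186-186705992 on the minus strand. In GENCODE, *Tgfb2* shares 80 exonic bases with *Gm29491* and *Tgfb3* shares 130 and 257 with *Gm37804* and *Gm48008*, all on the opposite strand, and the members other than these and *Bmp4* overlap no other gene's exons there.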

How the data were processed

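mRNA libraries from 6 tumors were sequenced on an Illumina instrument. The authors deposited 1 table with raw counts per gene and RPKM per gene. The study's methods name HISAT2 and featureCounts on mm10, whereas the submitters' processing notes name TopHat2 2.0.6 and HTSeq, so which made the deposited counts is not settled. The annotation and strand setting are not given in the sources used here. Every deposited count was even, and halving the counts was an alternative. Per the labels, tumors were grouped by Cre line and site. The 10 members, gene lists and tests were chosen with earlier results of these data known. Genes named from the lists were the 3 with the highest mean RPKM and the 2 with the widest range at a mean of at least 1 CPM, besides genes in a ratio and others said to be chosen later. Genes with too few counts (edgeR filterByExpr on line) were left out. Counts were scaled with TMM and tested with edgeR 4.0.16 quasi-likelihood fits (R 4.3.3, adjusted p under 0.05), separately for line and for site. DESeq2 1.42.0, other scalings and filters, covariates and leaving out each tumor were alternatives, and the fits were tested on simulated data. CPM values were computed for all 23358 entries, including 69 with repeated symbols, on TMM-scaled library sizes of the genes tested. Ratios within a tumor used the RPKM values the authors deposited, with exact permutation tests. The 6 tumors all differed by more than sampling noise. Total counts were 77.2 to 81.5% of the library totals implied by the RPKM, and *Rn45s* took 5.28 to 13.3% of counts. Floors cover counting error only. *Flg* and *Ly6g* were not found in the table. Whether the tumors came from separate litters is not stated. A gene of the lists is not reported here.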

Additional observations from a re-analysis of the deposited data

Results flagged for a closer look

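*Tgfb2* was flagged because tumor 36 lay far below the other tumors. Its log2 CPM was 4.88 in tumor 36 and 6.18 in the nearest tumor, a gap of 0.699 of the whole range of 6 tumors. It was the only flag among 36 groups of values examined, where chance gives about 1.8.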

How the results depend on the processing

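No paired analysis was possible because the groups share no replicate numbers. With edgeR no gene or member was called between lines under any scaling, filter, covariate or left-out tumor. DESeq2 called 412 genes and 11 other pathway genes between lines, and 547 genes, 2 members and 8 other pathway genes between sites. With edgeR and each tumor left out in turn, calls between sites ranged from 0 to 415 genes (2 without tumor 25, 415 without tumor 27, which leaves 1 perineal tumor) and from 0 to 1 member. DESeq2 without each tumor, added after seeing the data, gave 188 to 3637 genes, 0 to 2 members and 3 to 23 other pathway genes between lines (fewest genes without tumor 36, most without 25), and 14 to 1322 genes, 0 to 2 members and 0 to 13 other pathway genes between sites (fewest genes without tumor 36, most without 27). The causes were not tested. Signs turned for values near 0, where site was taken into account, or where 1 tumor was left out. With site as a covariate the log2 line differences were -0.012 (*Tgfb1*), 0.0072 (*Tgfb2*), -0.873 (*Inhba*) and -0.975 (*Bmp4*), and in trunk tumors alone -0.016, 0.0035, -0.878 and -0.981. With line as a covariate the site differences were 0.14 (*Tgfbr1*) and -0.29 (*Smad7*), and with library sizes alone that of *Tgfbr1* was 0.0068. Leaving out 1 tumor, over both tools, the line difference ranged from -0.015 to 0.50 for *Smad3* and from -0.0065 to 0.72 for *Smad7*, and the site difference from -0.15 to 0.44 for *Smad3* and from -0.17 to 0.23 for *Smad7*. The line difference in *Tgfb3* share was 0.73 points on counts and from -4.37 to 2.34 points without 1 tumor, that in log2 *Fst*/*Inhba* from -0.94 to 1.20, and that in log2 *Bmp4*/*Bmp2* from -0.043 to 2.24. With site as a covariate, 353 genes had an unadjusted p under 0.05 between lines instead of 1770, and 239 instead of 1680 between sites with line as a covariate. With 3 tumors per line and 2 perineal tumors, an absence of calls does not show that levels were alike.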
